A study of Rattus norvegicus with 6 samples.

Results

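The ADAMTS proteases are secreted zinc metalloproteinases with thrombospondin-type repeats that cleave proteins of the extracellular matrix. Their best known task in the intervertebral disc is the cleavage of aggrecan, the large proteoglycan that holds water in the tissue, and loss of aggrecan is a hallmark of disc degeneration. A second branch of the family removes the amino-terminal propeptide from newly made fibrillar procollagens, so that the chains can pack into fibrils. This account covers 10 members, taken by name: the proteoglycan-cleaving Adamts1, Adamts4, Adamts5, Adamts9 and Adamts15, the procollagen N-proteinases Adamts2, Adamts3 and Adamts14, and Adamts6 and Adamts12, which act on other matrix proteins. They are 10 of the 30562 genes counted in these discs, and all 10 passed the filter on low counts.

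The libraries come from rat discs, and wild type is the only genotype given. By the paper's methods, 12-week-old male Sprague-Dawley rats had a tail disc punctured with a needle, and injections into the disc began 24 h after surgery, with discs examined at 8 weeks. The Control group received 10 μL of PBS. The other group received 10 μL of AF-PTK@LEV@SPP1, a hybrid of liposomes and bacterial outer membrane vesicles that carries a peptide binding the annulus fibrosus through a linker sensitive to reactive oxygen species and an siRNA against Spp1 at 1 mg/kg. The sample records differ from this, naming a control without treatment, a duration of 14 days, mice, and macrophages sorted by F4/80 and CD11b. Each group has 3 libraries. They come from separate animals by the paper.

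Total counts were 17942989, 16565291 and 17489851 in Control replicates 1, 2 and 3 and 17074981, 15560728 and 17855184 in the AF-PTK@LEV@SPP1 libraries, which are called by their label. Levels are given as normalized CPM, read counts brought to one library size, and a count of 0 allows up to 3 counts, or 0.167 to 0.193 CPM before that scaling, by counting error only. Control replicates 2 and 3 were nearly the same library: of 14393 genes compared (20 or more counts over both), 16 (0.111%) differed beyond counting noise, against 39.5% to 56.6% of genes in the 5 other pairs within a group. Their counts were therefore summed as 1 sample in the fit and their levels averaged, which leaves 2 distinct Control samples and 3 AF-PTK@LEV@SPP1 samples. With these numbers a two-sided exact permutation test cannot give a p below 0.1.

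Spp1, the target of the siRNA, was read in every library to check the labels. It stood at 8123, 4411 and 4417 normalized CPM in Control replicates 1, 2 and 3, and at 8054, 6903 and 8461 in the AF-PTK@LEV@SPP1 libraries. No lower level of Spp1 therefore marks the group whose label names the siRNA, and directions below are relative to the labels. The fitted log2 fold change of 0.31 had a standard error of 0.37 (adjusted p = 0.628 in edgeR's quasi-likelihood test). The siRNA was designed for the mouse transcript.

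The record of sorted macrophages was checked against marker genes. Col1a1 and Col1a2, the chains of type I collagen, took 4.70% and 3.14% of the counts on average. The 10 chondrocyte markers summed to 22447 to 41025 normalized CPM over the 6 libraries, and the 12 macrophage markers to 449 to 1353, with Marco at 0 in every library. These levels go against a macrophage sort, and the libraries are called disc libraries here. In such bulk tissue fewer cells of a type and less RNA per cell cannot be told apart.

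In the AF-PTK@LEV@SPP1 libraries, 4 of the 10 members fell and 0 rose at an adjusted p under 0.05 in edgeR. The members that fell were Adamts1, Adamts4, Adamts5 and Adamts12, by 3.07-fold to 7.81-fold. Over all 15537 genes tested, 3.7% passed in either direction, 2.57% as lower and 1.13% as higher. At an unadjusted p under 0.05, edgeR had 6 members lower and 0 higher, against 25.4% of all genes in either direction. DESeq2 called 6 members lower and limma-voom 3, and neither called any higher, where these tools called 2503 of 16109 and 454 of 15537 genes in either direction. The median log2 fold change of the 10 members was -1.30, against 0.05 over all genes tested. The groups did not overlap in 6 members, all with the lower levels in the AF-PTK@LEV@SPP1 group, against 45.8% of all genes tested without overlap and 21.9% without overlap and lower. With the 6 libraries kept as separate samples edgeR called 6 members lower and 0 higher, where 18.1% of all genes passed, 9.93% as lower and 8.2% as higher. The members were proposed with results of these libraries known, and Adamts5 is also drawn in the study's own heatmap of inflammation and matrix genes from the same libraries, so its direction is not independent evidence.

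**Figure D1:**
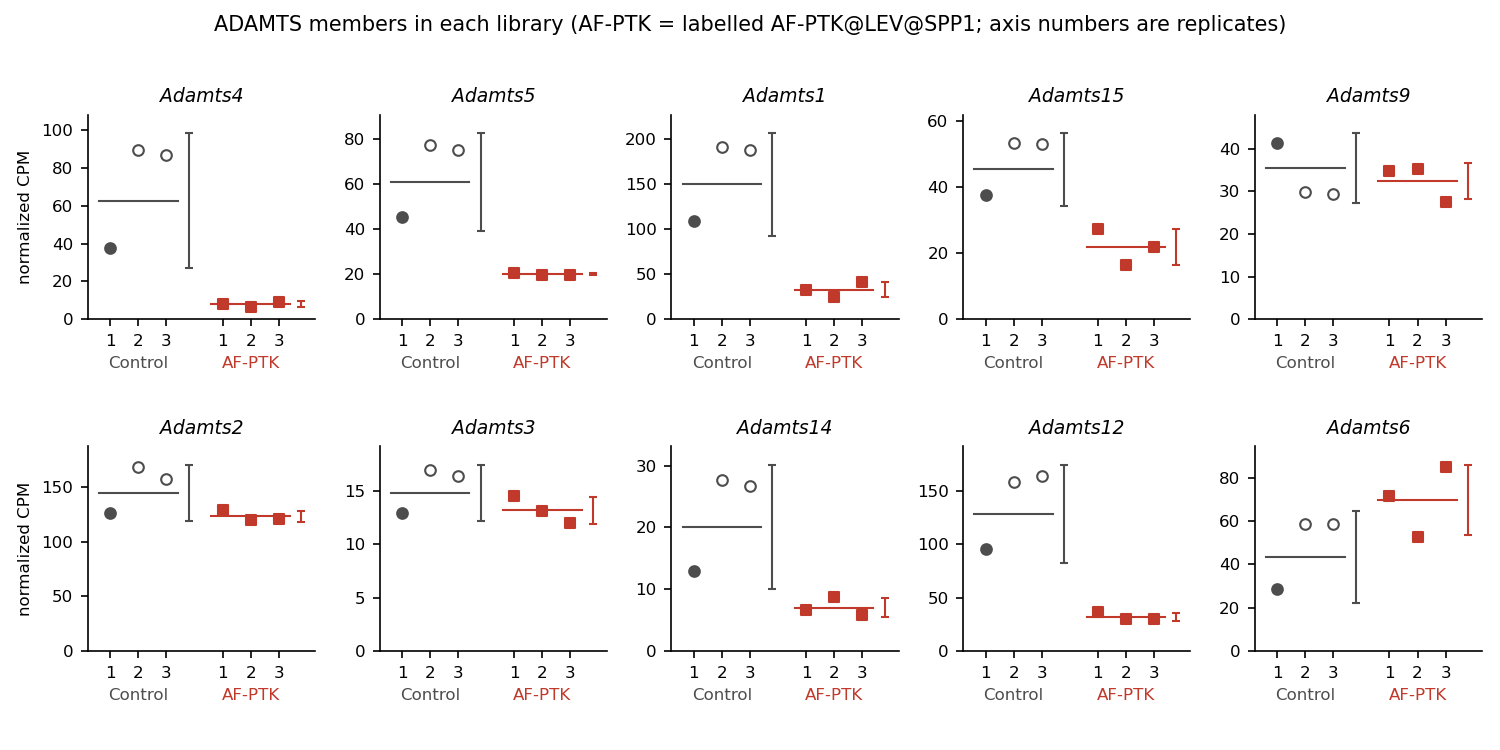
Normalized CPM (vertical axis, from 0) of each member in each library, with Control replicates as circles and AF-PTK@LEV@SPP1 libraries as red squares. Open circles are the near-identical Control replicates 2 and 3, horizontal lines are means over distinct samples, bars beside them are the SD, and Adamts4, Adamts5, Adamts1, Adamts15, Adamts14 and Adamts12 have every red square below every circle.

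Adamts4 and Adamts5 are the principal aggrecanases of cartilage-like tissues and cleave the aggrecan core protein between its globular domains. Adamts4 stood at 37.4, 89.2 and 86.5 normalized CPM in Control replicates 1, 2 and 3 and at 8.29, 6.64 and 9.29 in the AF-PTK@LEV@SPP1 libraries. The lowest Control library was thus well above the highest of the other group, and the Control samples differed among themselves far more than the AF-PTK@LEV@SPP1 libraries did. The means were 62.6 ± 35.7 (SD, n = 2 distinct samples) and 8.07 ± 1.34 (SD, n = 3), and the exact permutation test gave p = 0.1, the smallest possible here. The fitted fall was 7.81-fold, with a 95% confidence interval from 3.94-fold to 15.5-fold (log2 fold change -2.97, standard error 0.39, adjusted p = 0.0316 in edgeR). This placed Adamts4 at rank 103 from the lowest log2 fold change of the 15537 genes tested.

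Adamts5 showed a narrower spread. Its levels were 45.6, 77.5 and 75.3 normalized CPM in Control replicates 1, 2 and 3 and 20.6, 19.8 and 19.7 in the AF-PTK@LEV@SPP1 libraries. The latter group was nearly uniform, with a mean of 20.03 ± 0.531 (SD, n = 3) against 61.0 ± 21.8 (SD, n = 2 distinct samples), and the groups did not overlap. Adamts5 fell 3.07-fold, with a 95% confidence interval from 2.05-fold to 4.59-fold (log2 fold change -1.62, standard error 0.23, adjusted p = 0.0367 in edgeR). Whether Adamts4 and Adamts5 differ in the size of their fall was not tested.

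Adamts1 cleaves versican and, more slowly, aggrecan, and is known as a gene induced by inflammatory signals. It was at 109.5, 191.7 and 188.7 normalized CPM in Control replicates 1, 2 and 3 and at 32.1, 25.0 and 41.9 in the AF-PTK@LEV@SPP1 libraries. Again Control replicate 1 was the lowest of its group and still above every library of the other. The fall was 4.57-fold, with a 95% confidence interval from 2.61-fold to 8.01-fold (log2 fold change -2.19, standard error 0.32, adjusted p = 0.0381 in edgeR).

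Adamts15 and Adamts9 are versican-cleaving members, and neither passed the test. Adamts15 had 37.5, 53.2 and 52.8 normalized CPM in Control replicates 1, 2 and 3 and 27.3, 16.5 and 21.7 in the AF-PTK@LEV@SPP1 libraries, without overlap. Its log2 fold change of -1.06 had a 95% confidence interval from -1.73 to -0.40, and its adjusted p in edgeR was 0.0914. With the 6 libraries kept as separate samples the adjusted p for Adamts15 in edgeR was 0.0229, and over all alternatives it ran from 0.00974 to 0.326. Adamts9 stood at 41.2, 29.9 and 29.4 against 34.7, 35.2 and 27.5, so that the groups overlapped and Control replicate 1 was the highest library. The log2 fold change of Adamts9 was -0.13, with an interval from -0.63 to 0.36 (adjusted p = 0.696 in edgeR), and 0.11 without Control replicate 1.

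Of the proteoglycan-cleaving members, 3 of 5 thus passed the test and all 3 were lower, where 3.7% of all genes passed, 2.57% as lower. At an unadjusted p under 0.05, 4 were lower, where 25.4% of all genes passed in either direction. DESeq2 called 4 lower and limma-voom 2, against 2503 of 16109 and 454 of 15537 genes. Without replicate 1, 2 or 3 of the AF-PTK@LEV@SPP1 group edgeR called 0 of the 5. Summed without adjustment for transcript length, the 5 genes made 271, 442 and 433 normalized CPM in Control replicates 1, 2 and 3 and 123, 103 and 120 in the AF-PTK@LEV@SPP1 libraries. The mean sum in the latter was 32.6% of that in Control. For the 3 procollagen N-proteinases it was 79.9%, for Adamts6 with Adamts12 59.2%, and for all 10 members 51.1%.

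None of the 3 procollagen N-proteinases passed in edgeR, while 1 was lower at an unadjusted p under 0.05 and in DESeq2, and limma-voom called 0. Adamts2, the enzyme for the main fibrillar procollagens, whose loss causes the dermatosparactic form of Ehlers-Danlos syndrome, was at 126.4, 167.9 and 157.2 normalized CPM in Control replicates 1, 2 and 3 and at 129.2, 119.7 and 120.2 in the AF-PTK@LEV@SPP1 libraries. Control replicate 1 lay inside the range of the other group. The log2 fold change was -0.24, with a 95% confidence interval from -0.62 to 0.14 (adjusted p = 0.361 in edgeR). A fall of Adamts2 of the size fitted for Adamts5 lies outside that interval.

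Adamts3, which also activates the lymphatic growth factor VEGF-C, showed 12.9, 17.0 and 16.4 normalized CPM in Control replicates 1, 2 and 3 and 14.5, 13.1 and 11.97 in the AF-PTK@LEV@SPP1 libraries. The groups overlapped, and the log2 fold change of -0.18 had an interval from -0.63 to 0.28 (adjusted p = 0.572 in edgeR). Adamts14 was the exception in this branch. It had 12.9, 27.7 and 26.6 normalized CPM in Control replicates 1, 2 and 3 and 6.58, 8.69 and 5.76 in the AF-PTK@LEV@SPP1 libraries, all below Control. Its log2 fold change was -1.53, with an interval from -2.45 to -0.61, but the adjusted p of 0.0863 in edgeR missed the threshold. With the 6 libraries kept separate it was 0.0220, and over all alternatives it ran from 0.00372 to 0.289. The log2 fold change of Adamts14 was -0.89 with both near-identical Control libraries left out. Control replicate 1 was well below the near-identical pair here too.

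Adamts12 cleaves cartilage oligomeric matrix protein and was the remaining member to fall. It was at 95.8, 158.5 and 163.7 normalized CPM in Control replicates 1, 2 and 3 and at 36.3, 30.5 and 29.8 in the AF-PTK@LEV@SPP1 libraries. The libraries of the latter group lay close together, at a mean of 32.2 ± 3.58 (SD, n = 3) against 128.5 ± 46.1 (SD, n = 2 distinct samples). The fall was 4.02-fold, with a 95% confidence interval from 2.61-fold to 6.20-fold (log2 fold change -2.01, standard error 0.25, adjusted p = 0.0281 in edgeR). Adamts6, a protease of fibrillin microfibrils, was the only member with a fitted change above 0. Its levels were 28.6, 58.7 and 58.5 normalized CPM in Control replicates 1, 2 and 3 and 71.4, 52.7 and 85.1 in the AF-PTK@LEV@SPP1 libraries, with overlap. The log2 fold change of 0.67 had an interval from -0.26 to 1.60 (adjusted p = 0.313 in edgeR). Over the alternatives it ran from 0.24 without Control replicate 1 to 1.28 with both near-identical Control libraries left out, and the adjusted p from 0.222 to 0.681.

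All 4 calls were lost when any 1 library of the AF-PTK@LEV@SPP1 group was left out, and the reason was not tested. Without its replicate 1, 2 or 3, edgeR called 0 members, with the lowest adjusted p of a member at 0.0608, 0.0967 and 0.138, while 6 members had an unadjusted p under 0.05 each time. Of all genes 113, 0 and 0 passed in these settings, and 3998, 3109 and 2699 had an unadjusted p under 0.05. The log2 fold changes of the called members lay between -3.46 and -2.84 for Adamts4, -1.95 and -1.60 for Adamts5, -2.54 and -2.02 for Adamts1 and -2.34 and -1.95 for Adamts12 with each library left out in turn. With both near-identical Control libraries left out, an alternative chosen after seeing the data, 0 members passed in edgeR and the log2 fold changes of Adamts4, Adamts5, Adamts1 and Adamts12 were -2.22, -1.19, -1.74 and -1.58. The 6 members then at an unadjusted p under 0.05 were these genes and Adamts14, all lower, and Adamts6, which was higher, and Adamts15 was not among them. Limma-voom did not call Adamts4 (adjusted p = 0.0538, in a range over all alternatives from 6.65e-10 to 0.150).

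**Figure D2:**
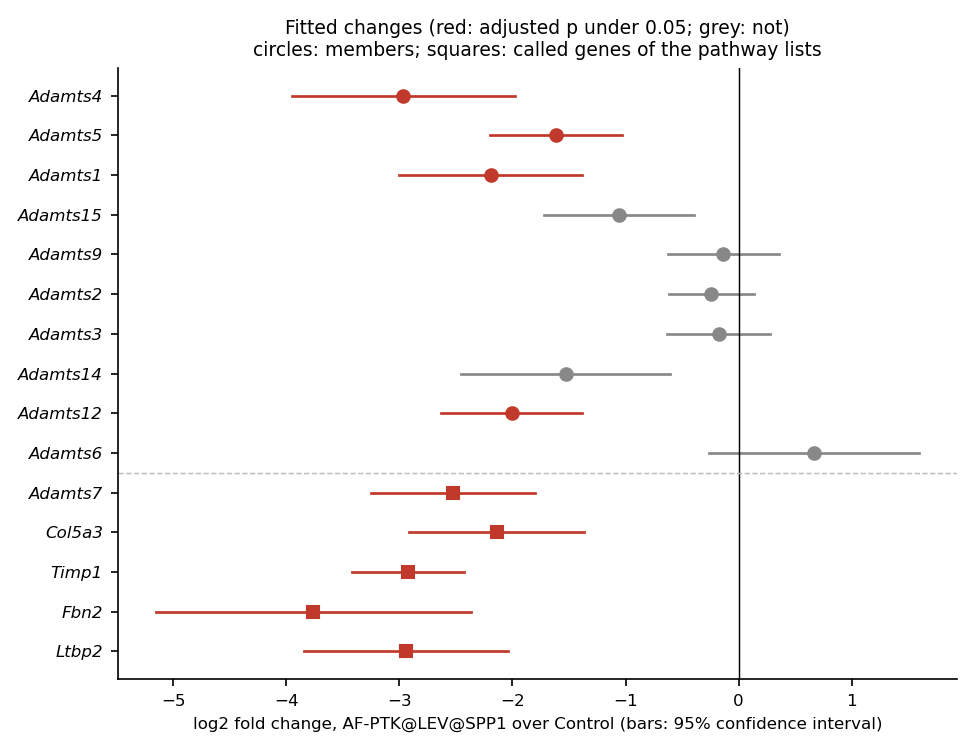
Fitted log2 fold change (horizontal axis) with its 95% confidence interval for the 10 members (circles) and the 5 called genes of the pathway lists (squares). Red marks an adjusted p under 0.05 in edgeR, and Adamts6 at 0.67 is the rightmost point.

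Genes with a profile most like that of a member were sought among 10059 tested genes whose log2 CPM averaged 3 or more, over the 5 distinct samples. For Adamts4 these were Col18a1, Glipr2 and C1qtnf5 (Pearson r of 0.9998, 0.9996 and 0.9994), and 592 genes had an r above 0.95. Col18a1, a collagen of basement membranes, stood at 206 and 330 normalized CPM in the distinct Control samples and at 91.1, 77.7 and 94.6 in the AF-PTK@LEV@SPP1 libraries. For Adamts5 they were Col5a3, Renbp and Mgp (r of 0.9994, 0.9991 and 0.9990), and 541 genes had an r above 0.95. Mgp encodes matrix Gla protein, which restrains mineral deposition, and was at 1694 and 2767 against 715, 677 and 644 normalized CPM. For Adamts2 they were Lrrfip2, Mapkap1 and Slk (r of 0.9986, 0.9981 and 0.9979), with 176 genes above 0.95. With so few samples many genes reach a high r, so these names are a description only.

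The members are scattered over the genome, with a few neighbours. In the authors' annotation, of a rat build not named in the sources used here, Adamts1 (ENSRNOG00000001607) lies on chromosome 11 from 24931761 to 24941103 and Adamts5 (ENSRNOG00000057794) from 25000637 to 25047205, both on the minus strand. The 59533 bases between them hold 0 other genes of the table, and both neighbours fell. Adamts15, on the minus strand of chromosome 8 from 29307865 to 29331249, is followed after 17864 bases by Adamts8 on the plus strand. Adamts8 stood at 1.75, 1.48 and 1.40 normalized CPM in Control replicates 1, 2 and 3 and at 2.06, 3.08 and 2.11 in the AF-PTK@LEV@SPP1 libraries, and did not pass, although the groups did not overlap (log2 fold change 0.59, adjusted p = 0.321 in edgeR). Adamts12 (ENSRNOG00000018865) lies on chromosome 2 from 60032873 to 60327629.

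Adamts4 (ENSRNOG00000003538) lies on chromosome 13 from 83670183 to 83680065 on the plus strand, and its span overlaps those of Ppox and Fcer1g on the minus strand. The strand setting of the counting is not given in the sources used here, so reads of the overlapping stretches could have been shared. Fcer1g, a receptor chain of myeloid cells named here for its position, had 1690, 799 and 827 counts in Control replicates 1, 2 and 3 and 346, 1060 and 1091 in the AF-PTK@LEV@SPP1 libraries. Adamts4 had 728, 1386 and 1416 counts in Control against 141, 110 and 163. Whether reads were shared between Adamts4 and the genes that overlap it was not tested.

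The promoters of the called members are shown because these genes fell together. RefSeq promoter sequences of build GRCr8, each running from 250 bases before to 50 bases after the gene's start, were found for 3 of the 4 genes, and Adamts5 had no entry. They were searched on both strands for the AP-1 letters TGANTCA, the RUNX letters TGTGGT, the NF-kB motif, the letters GGGCGG of the GC box and the letters TATAAA of the TATA box. Of 33469 promoters of the same length, 7.33%, 17.3%, 0.362%, 33.1% and 14.2% hold these motifs in that order. Capitals mark the matches, and no matches overlap.
Adamts1, chr11:38427335-38427634, minus strand: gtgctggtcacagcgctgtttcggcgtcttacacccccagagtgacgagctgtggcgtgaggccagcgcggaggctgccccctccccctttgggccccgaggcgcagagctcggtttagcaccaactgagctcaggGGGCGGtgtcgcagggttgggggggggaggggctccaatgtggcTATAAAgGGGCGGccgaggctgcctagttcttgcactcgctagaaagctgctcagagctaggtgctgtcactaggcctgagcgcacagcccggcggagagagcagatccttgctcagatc
Adamts4, chr13:86202761-86203060, plus strand: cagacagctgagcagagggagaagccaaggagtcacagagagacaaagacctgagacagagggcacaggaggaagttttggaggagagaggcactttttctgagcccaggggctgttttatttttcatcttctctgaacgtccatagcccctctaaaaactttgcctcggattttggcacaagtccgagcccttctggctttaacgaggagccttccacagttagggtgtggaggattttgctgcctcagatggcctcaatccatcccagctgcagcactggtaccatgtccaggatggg
Adamts12, chr2:61759737-61760036, plus strand: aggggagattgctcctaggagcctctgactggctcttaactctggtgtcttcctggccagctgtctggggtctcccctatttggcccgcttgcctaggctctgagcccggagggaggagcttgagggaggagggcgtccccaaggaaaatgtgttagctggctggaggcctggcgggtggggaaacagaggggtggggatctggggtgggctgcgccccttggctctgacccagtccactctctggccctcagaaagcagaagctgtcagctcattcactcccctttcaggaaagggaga
The window of Adamts1 holds GGGCGG at 114 and 63 bases before the start and TATAAA at 70 bases before it, all on the strand of the gene. In the windows of Adamts4 and Adamts12 none of the 5 motifs was found. The 3 promoters therefore share no match among the letters searched, which says nothing of the factors that act on them.

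Genes that work with these proteases were read from 9 lists of 69 names, of which 67 were matched to a gene of the table and 62 were tested. In edgeR 5 were lower (Adamts7, Col5a3, Timp1, Fbn2 and Ltbp2) and 0 higher in the AF-PTK@LEV@SPP1 libraries, and these calls are 8.06% of the genes tested in the lists, against 3.7% of all genes. At an unadjusted p under 0.05, 15 were lower and 4 higher, where 25.4% of all genes passed. DESeq2 called 12 lower and 5 higher, against 2503 of all 16109 genes it tested, and limma-voom 4 lower and 0 higher, against 454 of 15537. The median log2 fold change of the 62 genes was -0.25.

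Adamts7 was the only call among the 9 other ADAMTS proteases. It cleaves cartilage oligomeric matrix protein, as Adamts12 does, and is its closest relative. Its levels were 37.4, 60.9 and 61.3 normalized CPM in Control replicates 1, 2 and 3 and 10.6, 8.33 and 6.90 in the AF-PTK@LEV@SPP1 libraries, and the fit gave a log2 fold change of -2.52 with a standard error of 0.29 (adjusted p = 0.0246 in edgeR). Adamts10, a relative of Adamts6, was at 50.1 ± 1.39 (SD, n = 2 distinct samples) and 56.1 ± 3.43 (SD, n = 3), and Adamts13, which cleaves von Willebrand factor, and Adamts17 lay below 10 normalized CPM in every library. None of the 7 tested ADAMTS-like proteins, which lack the protease domain, passed in edgeR or limma-voom, and 2 of them were higher at an unadjusted p under 0.05 and in DESeq2. Adamtsl4, Adamtsl3 and Thsd4 had log2 fold changes of -0.24, 0.97 and 0.08.

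Among the 6 inhibitors, Timp1 was the only call in edgeR and limma-voom and fell, while 3 were lower and 2 higher both at an unadjusted p under 0.05 and in DESeq2. Of all genes, 3.7% passed in edgeR and 25.4% had an unadjusted p under 0.05. Timp4 and A2m, named after their values were seen, had log2 fold changes of 2.18 and -1.90 without overlap between the groups. No overlap was found in 45.8% of all genes tested. Timp1 was at 501.5, 550.4 and 556.3 normalized CPM in Control replicates 1, 2 and 3 and at 72.4, 56.1 and 80.8 in the AF-PTK@LEV@SPP1 libraries. The fit gave a log2 fold change of -2.93 with a standard error of 0.20 (adjusted p = 0.0119 in edgeR), and the adjusted p was 0.0408, 0.0645 and 0.130 without replicate 1, 2 and 3 of that group. Timp3, the tissue inhibitor that acts best on the aggrecanases, did not pass, at 321.6, 509.9 and 517.9 against 541.1, 309.5 and 328.4 normalized CPM (log2 fold change -0.10, adjusted p = 0.881 in edgeR). In edgeR Timp2 stood at a log2 fold change of -1.14 (adjusted p = 0.107) and Reck, a membrane-anchored inhibitor, at 0.85 (adjusted p = 0.101). Furin, which removes the prodomain of many ADAMTS proteases, was at 149.8, 159.2 and 160.8 normalized CPM in Control replicates 1, 2 and 3 and at 99.4, 105.5 and 93.4 in the AF-PTK@LEV@SPP1 libraries. It just missed the threshold (log2 fold change -0.65, adjusted p = 0.0509 in edgeR). At an unadjusted p under 0.05 and in DESeq2, 1 of the 4 convertases was lower, and limma-voom called 0. Of the other convertases, Pcsk6 and Pcsk5 had log2 fold changes of 0.70 and -0.32.

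The substrates of the aggrecanases did not pass. Of 13 tested genes for aggrecanase substrates and hyaluronan link proteins, edgeR called 0, with 2 lower at an unadjusted p under 0.05. Of all genes, 25.4% reached that unadjusted p in either direction. DESeq2 called 1 lower and limma-voom 0. Acan itself, the gene for aggrecan, was at 2305, 4397 and 4440 normalized CPM in Control replicates 1, 2 and 3 and at 7450, 3225 and 5947 in the AF-PTK@LEV@SPP1 libraries. The groups overlapped, and the log2 fold change of 0.71 had a standard error of 0.50 (adjusted p = 0.412 in edgeR). Dcn and Fmod, small proteoglycans of collagen fibrils, did not pass in edgeR, with log2 fold changes of -0.91 (adjusted p = 0.226) and 0.49 (adjusted p = 0.476).

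Of the 9 procollagen genes, Col5a3 fell, a chain of the type V collagen that regulates fibril diameter. It was at 251.1, 501.2 and 519.4 normalized CPM in Control replicates 1, 2 and 3 and at 86.7, 87.6 and 86.9 in the AF-PTK@LEV@SPP1 libraries (log2 fold change -2.14, standard error 0.31, adjusted p = 0.0371 in edgeR). Col1a1, Col1a2 and Col2a1, the substrates that Adamts2 is best known for, had log2 fold changes of 0.48, 0.79 and 0.57 and did not pass in edgeR, while DESeq2 called Col1a2 higher. At an unadjusted p under 0.05 edgeR had 3 procollagen genes lower and 0 higher, DESeq2 called 2 lower and 1 higher, and limma-voom 1 lower. Besides Col5a3 the 3 were Col3a1 and Col5a1, named after their values were seen. Their log2 fold changes were -1.26 and -1.14 (adjusted p = 0.144 and 0.193 in edgeR). Of the 9 procollagen genes 5 had a log2 fold change below 0. Of all genes, 25.4% had an unadjusted p under 0.05. The C-proteinase Bmp1 and its enhancer Pcolce, which work at the other end of the procollagen, had log2 fold changes of -0.32 and -0.03, and Tll1 had -0.66. Of the 3 tested genes of this list edgeR, DESeq2 and limma-voom called 0, and 1 was lower at an unadjusted p under 0.05. Mep1a and Mep1b had 3 counts or fewer in every library.

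Of the 6 tested genes for fibrillin microfibrils, to which Adamts6 binds, edgeR called 2 lower and 0 higher, where 2.57% of all genes passed as lower. At an unadjusted p under 0.05 edgeR had 3 lower, where 25.4% of all genes passed in either direction. DESeq2 called 3 lower and limma-voom 1. Fbn2, the fetal fibrillin, was at 10.7, 34.9 and 38.5 normalized CPM in Control replicates 1, 2 and 3 and at 1.59, 1.99 and 1.71 in the AF-PTK@LEV@SPP1 libraries (log2 fold change -3.76, adjusted p = 0.0381 in edgeR). Ltbp2 was at 128.6, 247.7 and 249.6 against 29.1, 17.92 and 27.2 (log2 fold change -2.94, adjusted p = 0.0276 in edgeR). Fbn1, the main fibrillin of adult tissue, did not pass (log2 fold change 0.33), nor did Mfap5 and Ltbp1 (0.44 and 0.32). Mfap2, named after its values were seen, was lower without overlap but did not pass (log2 fold change -1.12, adjusted p = 0.0955 in edgeR). Of all genes tested, 21.9% were lower without overlap. Among cell-surface partners and clearance genes, the fibronectin gene Fn1, the clearance receptor gene Lrp1 and the syndecan gene Sdc4 had log2 fold changes of -1.70, -0.26 and -0.71, and none of the 5 tested genes passed in edgeR, while 1 was lower at an unadjusted p under 0.05 and in DESeq2 and limma-voom called 0. The calls of Adamts7, Col5a3, Fbn2 and Ltbp2 were lost in edgeR without replicate 1, 2 or 3 of the AF-PTK@LEV@SPP1 group, with an adjusted p from 0.0515 to 0.165, and Fbn2 was not called by limma-voom. With both near-identical Control libraries left out, chosen after seeing the data, these calls and that of Timp1 were lost in edgeR too, and the log2 fold change of Fbn2 was -2.61.

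Marker genes of several cell types differed between the same groups. For comparison, 2.57% of all genes tested were called lower and 1.13% higher in edgeR, and 25.4% had an unadjusted p under 0.05. DESeq2 called 2503 of 16109 genes and limma-voom 454 of 15537, and 45.8% of all genes tested did not overlap between the groups. The 7 osteoclast markers, led by Ctsk, summed to 5398, 3404 and 3415 normalized CPM in Control replicates 1, 2 and 3 and to 823, 757 and 486 in the AF-PTK@LEV@SPP1 libraries. In edgeR 4 of 7 tested were called lower (Acp5, Ctsk, Dcstamp and Atp6v0d2). At an unadjusted p under 0.05 and in DESeq2, 6 osteoclast markers were lower, and limma-voom called 3. Of the 12 macrophage markers, led by Csf1r, 3 of 11 tested were called lower (Cd68, Cd14 and Msr1). Their sums were 1353, 909 and 905 in Control replicates 1, 2 and 3 and 449, 747 and 598 in the other group. At an unadjusted p under 0.05 and in DESeq2, 5 macrophage markers were lower, and limma-voom called 3. Adgre1, C1qa, C1qb and C1qc overlapped between the groups, as did Cd163, which went the other way (log2 fold change 1.15). These 5 genes were named after their values were seen. The 6 fibroblast markers summed to 3074, 6535 and 6568 against 1016, 994 and 1250, with Lum as the most abundant gene and the only call in edgeR. Lum is also a gene of disc and tendon cells and makes up most of that sum in Control. The genes of the list went both ways. Pdgfra was lower and Pi16 and Dpp4 were higher without overlap (log2 fold changes -0.84, 3.03 and 1.47, genes named after their values were seen), and DESeq2 called 2 genes of the list lower and 1 higher. Without replicate 1 of the AF-PTK@LEV@SPP1 group edgeR called 1 osteoclast, 1 macrophage and 0 fibroblast markers, and without its replicate 2 or 3 it called 0 of each. In Control replicate 1 the osteoclast and macrophage sums were the highest of the group and the fibroblast sum the lowest, and Adamts4, Adamts5, Adamts1 and Adamts12 were lowest there.

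**Figure D3:**
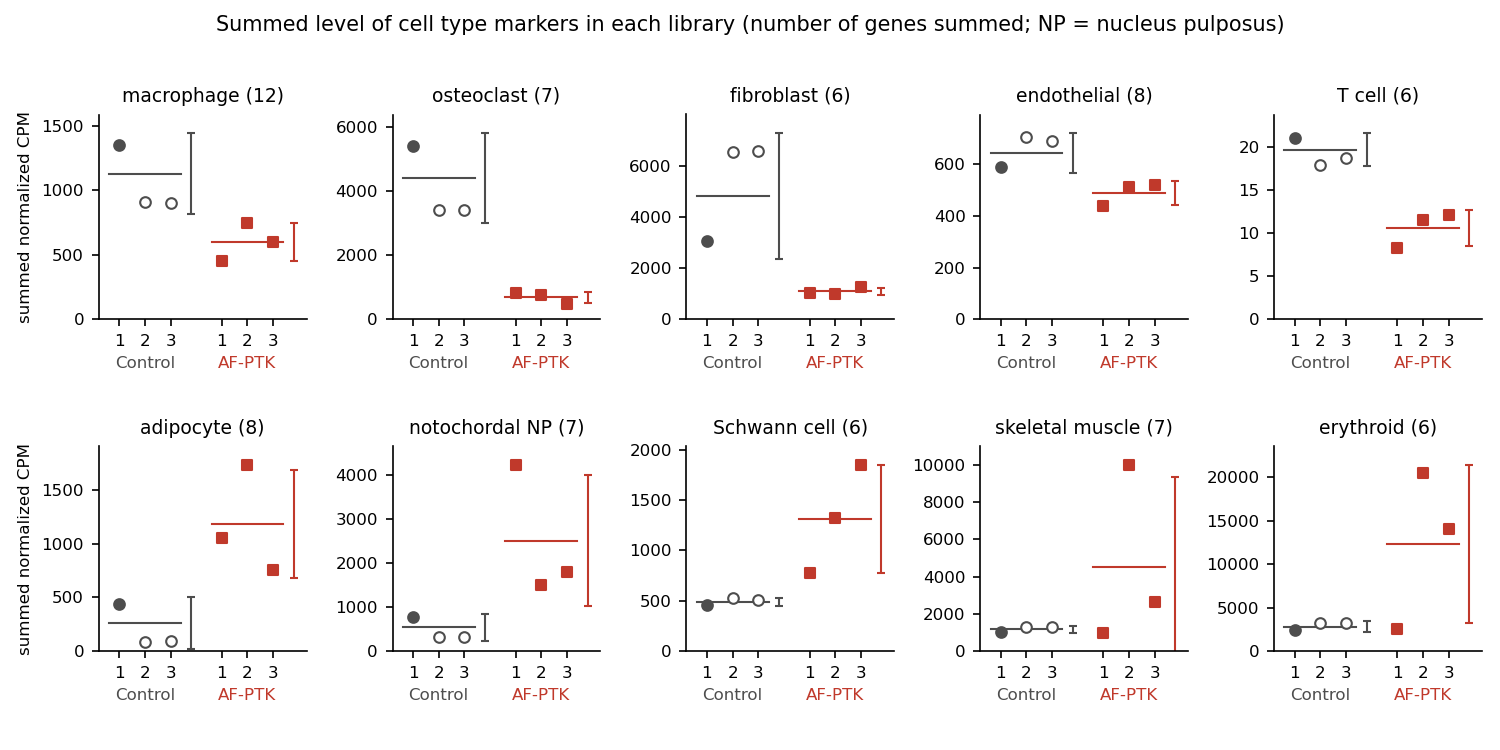
Summed normalized CPM (vertical axis, from 0) of the markers of 10 cell types in each library, with the number of genes summed in brackets. Symbols, lines and SD bars are as in the plot of the members, and the osteoclast and macrophage sums and the fibroblast sum, most of which is Lum in Control, are lower in every AF-PTK@LEV@SPP1 library than in any Control library.

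Endothelial markers, led by Pecam1, summed to 587, 704 and 690 normalized CPM in Control replicates 1, 2 and 3 and to 437, 512 and 517 in the AF-PTK@LEV@SPP1 libraries, with 0 of 8 called in edgeR, 4 lower at an unadjusted p under 0.05, 3 lower in DESeq2 and 0 in limma-voom. T cell markers, led by Lck, summed to 21.0, 17.88 and 18.7 against 8.23, 11.5 and 12.1, and 1 of 6 (Cd2) was called lower, a call lost when any 1 of the 3 AF-PTK@LEV@SPP1 libraries was left out. At an unadjusted p under 0.05, 4 T cell markers were lower, and DESeq2 called 3 and limma-voom 1. Lck itself overlapped between the groups, as did Cd5, named after its values were seen (log2 fold changes 0.07 and 0.55). The sums of other lists were higher. Adipocyte markers, led by Fabp4, a gene the study drew from these libraries, summed to 435.3, 84.7 and 91.2 in Control replicates 1, 2 and 3 and to 1051, 1739 and 758.5 in the other group. Notochordal markers of the nucleus pulposus, led by Cd24 and with Noto at 0, summed to 760.1, 326.6 and 320.0 against 4225, 1507 and 1788, and Schwann cell markers, led by Pmp22, to 461.5, 529.6 and 509.0 against 778, 1319 and 1850. EdgeR called 0 genes of these 3 lists, of which 6, 4 and 5 were higher at an unadjusted p under 0.05, DESeq2 called 6, 4 and 5 higher, and limma-voom 0. With the replicate number as a block, a fit that counts the near-identical Control libraries as separate samples, edgeR called 4 notochordal markers higher. With the 6 libraries kept separate it called 3, 2 and 4 genes of these lists higher, and without replicate 1 of the AF-PTK@LEV@SPP1 group 2 Schwann cell markers. Of all genes, 8.2% passed as higher with the 6 libraries separate, and 703 of 15564 passed in either direction with the block. Without that replicate 113 of 15363 passed. Over the 5 distinct samples 25.4% of all genes had an unadjusted p under 0.05 in edgeR, and DESeq2 called 2503 of 16109.

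Libraries of the AF-PTK@LEV@SPP1 group also differed among themselves. The erythroid markers, led by Hba-a1, summed to 2500, 20447 and 14044 normalized CPM in its replicates 1, 2 and 3, against 2378, 3186 and 3277 in Control. The skeletal muscle markers, led by Acta1, summed to 973, 10009 and 2629 against 1042, 1305 and 1316, and the neutrophil markers, led by S100a9, to 325.5, 3188 and 4310 against 1228, 477 and 470.2. Over these 3 libraries Adamts4 lay between 6.64 and 9.29 normalized CPM and Adamts5 between 19.7 and 20.6. The sums of the B cell, smooth muscle and pericyte, chondrocyte, annulus and tendon, osteoblast and keratinocyte markers, led by Cd79a, Acta2, Col2a1, Fmod, Ibsp and Sfn, overlapped between the groups as well. None of the genes of the 9 lists whose sums overlapped was called in edgeR over the 5 distinct samples, in which 0, 1, 3, 2, 0 and 0 genes of the latter 6 lists and 1, 0 and 0 of the erythroid, skeletal muscle and neutrophil lists had an unadjusted p under 0.05. DESeq2 called 1, 2, 2 and 2 genes of the smooth muscle, chondrocyte, annulus and erythroid lists, and limma-voom 0 of the 9 lists. Of all genes, 25.4% had an unadjusted p under 0.05 in edgeR, and DESeq2 called 2503 of 16109. In edgeR 1 gene each of the smooth muscle, chondrocyte and annulus lists was called with the 6 libraries kept separate, 1 neutrophil gene (Lcn2) with the replicate block, and 1 erythroid gene without replicate 1 of the AF-PTK@LEV@SPP1 group. The chondrocyte and annulus lists share Acan, Col2a1, Col11a2, Hapln1, Matn3 and Fmod with the substrate lists of the pathway. The part of any of these cell types in the levels of the ADAMTS genes was not tested.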

How the data were processed

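The authors deposited a table of raw featureCounts read counts for 30562 genes in 6 libraries. The submitters' processing notes name FastQC, Trimmomatic, HISAT2, featureCounts and DESeq2, without versions, and the mouse build mm10, although the gene identifiers are those of the rat. Here R 4.3.3 and edgeR 4.0.16 were used: TMM normalization, filterByExpr (minimum count 10), the quasi-likelihood test over 15537 genes, and Benjamini-Hochberg adjusted p under 0.05. Control replicates 2 and 3 were summed as 1 sample. Log2 CPM used a prior count of 2, and standard errors were derived from the F statistic. Alternatives were DESeq2 1.42.0, limma-voom 3.58.1, RLE size factors, no filter, a replicate block over 6 libraries, the 6 libraries kept separate, and each library left out.

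The members and lists were chosen with earlier results of these data known. Genes named are all members, Spp1, called pathway genes, the 3 uncalled genes of each pathway list with the largest mean CPM, the 3 genes most like Adamts4, Adamts5 and Adamts2, called or most abundant markers, and, chosen by position after values were seen, genes next to or overlapping a member. Other pathway and marker genes, such as Timp4, A2m, Col3a1, Col5a1, Mfap2, Pdgfra, Pi16, Dpp4, Cd163, Cd5 and Lcn2, were named after their values were seen. List names were matched directly or by RefSeq synonym. Adamtsl6, Pcolce2, Myh1, Krt19, Hba-a2, Krt14 and Krt15 were not matched. Promoters came from RefSeq GRCr8 and were matched by symbol. The fits were also run on simulated counts. These varied less between samples of a group than the real counts, so that run gives no error rate for these data.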

Additional observations from a re-analysis of the deposited data

How the results depend on the processing

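Of 15537 genes, 575 passed, and 4 of the 10 members. With the 6 libraries kept separate 2727 genes passed, and with DESeq2 2503, with 6 members in each. Leaving out each library in turn gave 0 to 566 genes and 0 to 4 members. Without replicate 1, 2 and 3 of the AF-PTK@LEV@SPP1 group 113, 0 and 0 genes passed, and these 3 settings left 0 members in edgeR. At an unadjusted p under 0.05 these last 3 settings had 3998, 3109 and 2699 genes and 6 members each. With both near-identical Control libraries left out, chosen after seeing the data, 3 genes and 0 members passed (2572 genes and 6 members at an unadjusted p under 0.05, with Adamts6 higher among them and Adamts15 not). Fewer samples remained in these settings, and a lone Control sample was assumed to vary like the other group. Limma-voom gave 454 genes and 3 members, RLE size factors 608 and 4, no filter 699 and 4, and a log2 fold change beyond 1 452 and 4. The replicate block, which like the 6-library fit counts the near-identical pair as separate samples, gave 703 genes and the same 4 members, although samples share only a number: same-number residual correlations were -0.326, -0.282 and -0.076 (mean -0.228) against 0.103 for different numbers. Of 130 member values under the alternatives, 107 kept direction and side of the threshold, 17 lost and 4 gained a call, and 2 reversed: Adamts9 was 0.11 without Control replicate 1 (-0.22 to 0.11 over the libraries left out), and Adamts3 0.0191 with the pair left out. Both had been uncalled, and the cause was not tested. Adamts14 had as few as 101 counts in a library and Adamts4 110, which limits the precision there.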
